A study of Homo sapiens with 6 samples.

Results

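Transcripts of 10 genes that feed back on ERK signalling or inhibit it were followed in MEG-01. The figures call all of them ERK feedback genes for short. MEG-01 is a human cell line derived from megakaryoblastic leukaemia that carries the BCR-ABL fusion. The genes were taken by name from a deposited table of 61852 genes. They encode MAP kinase phosphatases (DUSP1, DUSP4, DUSP5, DUSP6 and DUSP7), adaptor inhibitors of the RAS to RAF step (SPRY2, SPRED1 and SPRED2), the kinase inhibitor PEBP1 and the ERK substrate IER3. The cells carried either a short hairpin RNA against MELK (sh2-MELK, knockdown, n = 3) or the control pLKO.1 vector (control, n = 3). MELK encodes a serine/threonine kinase of proliferating cells. Cells of the knockdown group carried a single hairpin, so effects of MELK loss and other effects of that hairpin cannot be told apart. The 6 libraries share 1 batch label, and the design text describes the 3 of each group as independent biological replicates.

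ERK is activated by a chain of kinases from RAS through RAF and MEK, and it switches on genes that then limit it. The MAP kinase phosphatases remove both activating phosphates from MAP kinases, in the nucleus for DUSP1, DUSP4 and DUSP5 and in the cytoplasm for DUSP6 and DUSP7. SPRY and SPRED proteins act further up, on the passage of the signal from receptors through RAS to RAF. In megakaryocytes, sustained ERK activity downstream of the thrombopoietin receptor is known to accompany differentiation, and the series' title places the comparison in ERK and cofilin signalling during megakaryopoiesis.

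Library totals ran from 18945176 to 21711313 counts. Values are given as deposited counts and as CPM (counts scaled to library size, with TMM factors). Over well-counted genes (mean count 500 or more), Pearson's r of log2 CPM was 0.994 to 0.996 within groups and 0.891 to 0.908 between them. Each deposited value appears to hold an added number drawn from 0, 1, 2, 10 and 100 on top of the reads, since 35797 genes hold those 5 numbers alone. Values of genes with few reads, here DUSP4, SPRY2 and SPRED1, are therefore also given from a model that takes the added number into account. MELK itself had counts of 16, 124 and 26 in the knockdown libraries, against 219, 206 and 238 in the control libraries. Its log2 fold change was -1.98 ± 0.69 (SE), which did not pass (edgeR quasi-likelihood, adjusted p = 0.104). Without knockdown replicate 2 it was -3.32 (edgeR adjusted p = 0.00271). The model put the log2 fold change of MELK at -3.39, with a 95% interval of -3.88 to -2.97.

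Of 6 tested megakaryoblast markers, ITGA2B, ITGB3, GP1BA, GATA1 and NFE2 fell in the knockdown and GP9 did not pass. Of all tested genes 8.43% fell, and of well-counted genes, to which 4 of these markers belong, 38.9% fell when fitted on their own. The markers were not tested as a set. GP9 was low, with values of 16, 2 and 102 in the knockdown and 11, 8 and 12 in the control, and PF4 held only the added numbers. No fibroblast marker of 3 passed in edgeR, while the model called all 3 (COL1A1, COL1A2 and PDGFRA) higher. Their summed counts were 203 to 302 in the knockdown libraries and 32 to 136 in the control libraries. Summed counts were 107 to 119 in the knockdown and 6 to 109 in the control for 3 T cell markers, 13 to 107 and 28 to 38 for 3 B cell markers, and 495 to 558 and 523 to 670 for 3 epithelial markers. In the model no T cell or epithelial marker passed, and the B cell marker CD79A (24, 6 and 9 counts in the knockdown, against 26, 27 and 35 in the control) was lower. The part of these marker levels in the results was not tested. In bulk RNA, fewer cells of a kind and less RNA per cell cannot be told apart.

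DUSP5, DUSP4, DUSP6 and IER3 rose in the knockdown, PEBP1 and DUSP1 fell, and DUSP7, SPRY2, SPRED1 and SPRED2 did not pass. That is 6 of the 10 genes, all of which were tested, against a background of 16.5% of 28303 genes (8.12% higher and 8.43% lower) in edgeR's quasi-likelihood test at an adjusted p below 0.05. The background depends on how well a gene was measured. Of the 5038 well-counted genes, 77.0% passed when fitted on their own (38.1% higher and 38.9% lower). In that fit all 7 well-counted members passed, 4 higher and 3 lower, DUSP7 (edgeR adjusted p = 0.0452) and SPRED2 (edgeR adjusted p = 0.0345) among them. In the model of the added number 7 of the 10 passed, 4 higher and 3 lower, against 6.60% higher and 6.93% lower of 61852 genes. Of those 61852 genes, 35797 hold the added numbers alone, so this is not a background of expressed genes. Taking the 10 together, the median of their log2 fold changes stood at 0.39, where that of the tested genes was 0.02. The 0.39 lies between DUSP7 (0.17) and SPRED1 (0.61), neither of which passed. Of the tested genes, 8895 hold the added numbers alone, and a shift of the 10 as a group was not tested. In 8 of the 10 genes the 3 libraries of one group lay beyond the 3 of the other, 5 of them higher and 3 lower in the knockdown. Such separation was seen in 30.7% of all genes tested (15.9% higher and 14.8% lower) and in 79.2% of well-counted genes (38.1% higher and 41.0% lower).

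**Figure D1:**
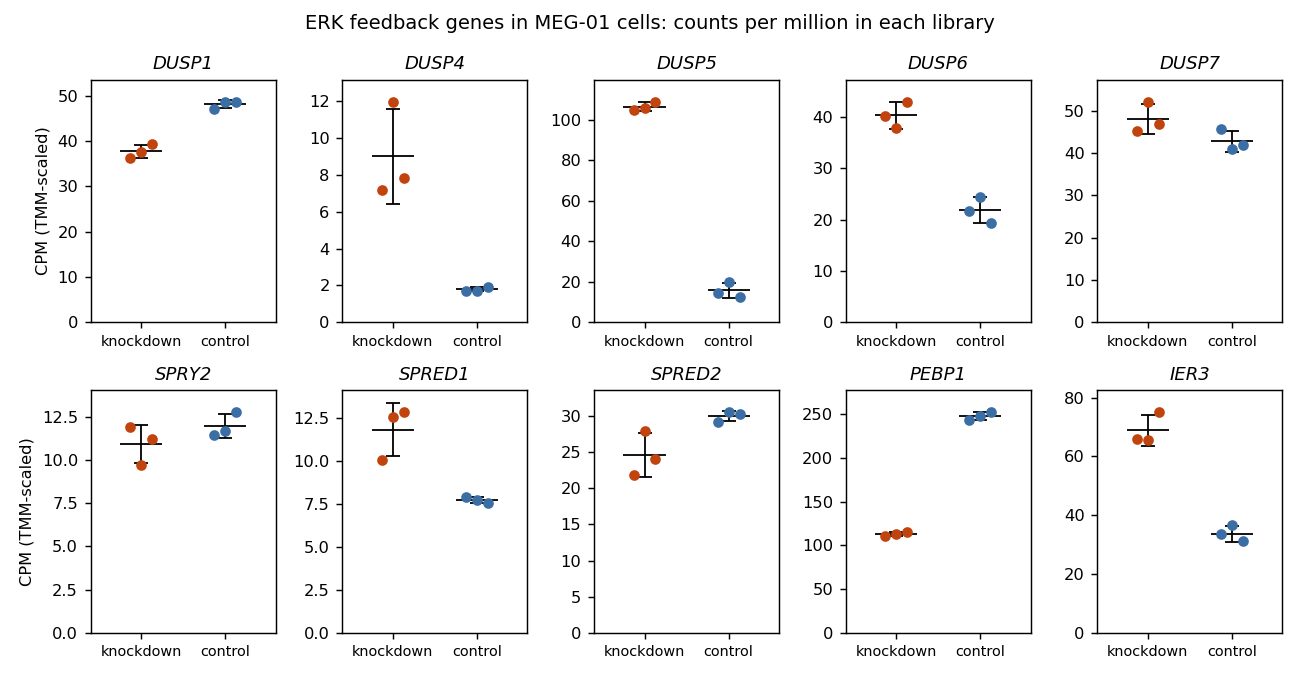
CPM (TMM-scaled, linear axis from 0) of each of the 10 genes in the 3 knockdown and 3 control libraries of MEG-01 cells. Points are libraries, and bars are the mean and the SD (n = 3). DUSP5 stood at 104.6 to 108.8 CPM in the knockdown libraries and 12.6 to 19.7 CPM in the control libraries, and SPRY2 and DUSP7 overlapped between the groups.

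The nuclear phosphatases moved in different directions. DUSP5, an ERK-selective nuclear phosphatase (ENSG00000138166, GRCh38 chromosome 10, 110497838 to 110511544), had counts of 2062, 2125 and 2054 in the knockdown, against 298, 380 and 258 in the control. Every knockdown library was far above every control library. The level averaged 106.4 ± 2.21 CPM in the knockdown and 15.6 ± 3.68 CPM in the control (SD, n = 3 each), a 6.81-fold difference, or 2.77 ± 0.14 on the log2 scale (SE, edgeR adjusted p = 3.48e-06). Of the 5038 well-counted genes, DUSP5 was 7th from the top by log2 fold change, IER3 160th and DUSP6 269th, and PEBP1 was 195th from the bottom. In the control, DUSP5 was highest in replicate 2, where the model placed 100 of the 380 counts in the added number. The modelled log2 fold change of DUSP5 was 2.93 (95% interval 2.77 to 3.09).

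DUSP4 (ENSG00000120875, chromosome 8, 29333064 to 29350668) is a nuclear phosphatase with ERK, JNK and p38 among its substrates. Its counts were 142, 241 and 148 in the knockdown and 35, 33 and 39 in the control, so the groups lay apart but both were low. It rose by 2.34 ± 0.41 on the log2 scale (SE, edgeR adjusted p = 0.00411). The spread came from knockdown replicate 2. Without it the log2 fold change was 2.08 and the call was lost (edgeR adjusted p = 0.118), as it was in limma-voom (adjusted p = 0.0623). In the model the count of 241 resolved into 141 reads and an added 100. It gave 143.2 reads in the knockdown (95% interval 128.0 to 159.8) and 32.8 reads in the control (24.6 to 40.8), with a log2 fold change of 2.12 (1.77 to 2.57).

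DUSP1 (ENSG00000120129, chromosome 5, 172768090 to 172771195) is an immediate early gene whose protein acts on p38 and JNK as well as ERK. It had counts of 714, 758 and 740 in the knockdown and 961, 937 and 996 in the control. All knockdown libraries were below all control libraries, by a small margin. DUSP1 averaged 37.7 ± 1.49 CPM in the knockdown and 48.1 ± 0.894 CPM in the control (SD, n = 3 each), which on the log2 scale is -0.35 ± 0.06 (SE, edgeR adjusted p = 0.00220). It did not pass a test against a fold change of 1.5 (edgeR adjusted p = 1.0).

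Of the cytoplasmic phosphatases, DUSP6, the ERK-specific enzyme most often read as a sign of ERK output (ENSG00000139318, chromosome 12, 89347232 to 89353271), rose. Its counts were 793, 762 and 812 in the knockdown and 444, 470 and 396 in the control, with no overlap. DUSP6 averaged 40.4 ± 2.59 CPM in the knockdown and 21.8 ± 2.54 CPM in the control (SD, n = 3 each), a 1.85-fold difference (log2 fold change 0.89 ± 0.10 SE, edgeR adjusted p = 0.000334). An antisense gene, AC024909.2, overlaps 40.5% of the annotated exon bases of DUSP6, and the strand setting of the counting is not given in the sources used here. AC024909.2 had counts of 118, 27 and 16 in the knockdown and 8, 21 and 108 in the control, far below those of DUSP6.

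DUSP7, the close relative of DUSP6 (ENSG00000164086, chromosome 3, 52048919 to 52056550), had counts of 890, 1049 and 885 in the knockdown and 931, 789 and 858 in the control. The groups overlapped, and its log2 fold change of 0.17 ± 0.07 did not pass (SE, edgeR adjusted p = 0.214). Well-counted genes richer in G and C tended to have lower fold changes (Spearman's rho -0.386, across the 5031 of them with a GC content, which share libraries and are not independent). Once trends with GC and length were taken out per library, the log2 fold change of DUSP7 was 0.41 (edgeR adjusted p = 6.52e-05).

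All 5 phosphatases carry the catalytic signature of the family, a histidine and cysteine followed after 5 residues by an arginine, found once in each coding sequence. The codons of this signature are shown for 4 of them because the active site is the part that the enzymes share, while their levels moved apart. The cysteine and arginine codons are in capitals. The sequences are from GENCODE release 29 transcripts on GRCh38, in the direction of the coding strand, at chr5:172769074-172769097 (minus strand), chr10:110510055-110510078 (plus strand), chr12:89349503-89349526 (minus strand) and chr3:52051064-52051087 (minus strand).
DUSP1: cacTGCcaggcaggcatttccCGG
DUSP5: cacTGTgaggctgggatctccCGT
DUSP6: catTGCttggctggcattagcCGC
DUSP7: cacTGCctggcaggcatcagcCGC
Over these 24 bases, DUSP6 and DUSP7 shared 20, DUSP5 shared 18 with DUSP1 and 15 with DUSP6, and the 10 pairs of the 5 genes shared 15 to 21. No 100-base stretch of the transcripts of DUSP1, DUSP4, DUSP5 or DUSP7 occurred in another annotated gene on either strand. The corresponding share was 35.7% for DUSP6, all with AC024909.2.

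**Figure D2:**
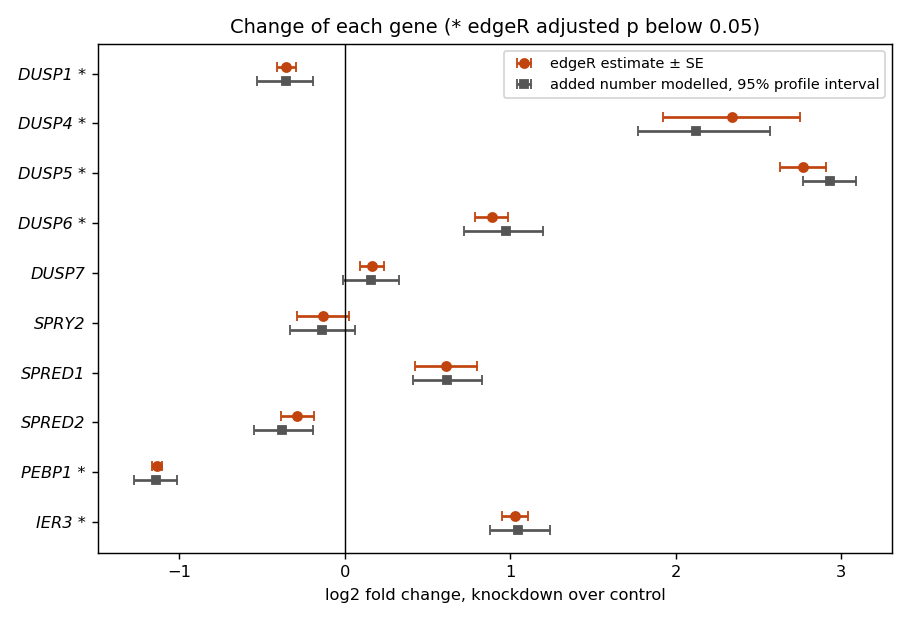
Log2 fold change, knockdown over control, of each of the 10 genes. Circles are edgeR estimates with their SE, squares are estimates with the added number modelled and their 95% profile intervals, and an asterisk marks an edgeR adjusted p below 0.05. DUSP5, DUSP4, IER3 and DUSP6 lie to the right at 0.89 or more, and PEBP1 and DUSP1 lie to the left at -1.13 and -0.35.

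Per kilobase of annotated exon, the make-up of the phosphatase transcripts differed between the groups. DUSP5 was 52.9%, 51.7% and 52.2% of the summed per-kilobase level of the 5 phosphatases in the knockdown libraries, against 13.3%, 17.0% and 11.8% in the control libraries. DUSP1 was 23.7%, 23.9% and 24.4% of the sum in the knockdown and 55.6%, 54.3% and 59.1% in the control. The leading phosphatase transcript was thus DUSP5 in each knockdown library and DUSP1 in each control library. DUSP6 had 11.2 ± 0.641% in the knockdown and 11.1 ± 0.817% in the control, and DUSP7 had 10.9 ± 0.769% and 17.9 ± 1.48% (SD, n = 3 each). DUSP4 was the smallest, at 1.59 ± 0.450% and 0.580 ± 0.0577%.

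The summed level was 75.6, 78.1 and 79.7 CPM per kilobase in the knockdown and 41.9, 44.4 and 40.7 CPM per kilobase in the control. Without DUSP5 the sum of the other 4 was 35.6, 37.7 and 38.1 CPM per kilobase in the knockdown and 36.3, 36.8 and 35.9 in the control, and these ranges overlapped. Within each library the ratio of DUSP5 to DUSP1 per kilobase was 2.14 to 2.23 in the knockdown and 0.200 to 0.313 in the control. The ratio of DUSP6 to DUSP7 was 0.886 to 1.12 in the knockdown and 0.563 to 0.726 in the control. That ratio depends on the length taken for DUSP7. Per kilobase of the longest transcript, DUSP6 averaged 9.18 and DUSP7 14.4 CPM in the knockdown, and 4.96 and 12.8 CPM in the control. The exon length of DUSP6 includes the 40.5% overlapped by AC024909.2, and how reads in that stretch were counted is not known.

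**Figure D3:**
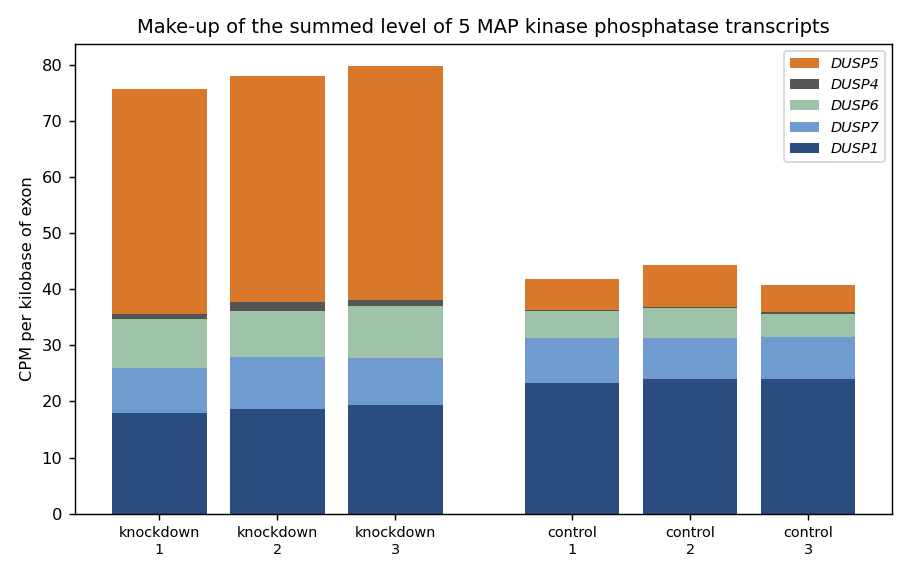
Stacked level (CPM per kilobase of exon, linear axis from 0) of 5 MAP kinase phosphatase transcripts in each library, knockdown on the left and control on the right. The bars reach 75.6 to 79.7 in the knockdown and 40.7 to 44.4 in the control, and the DUSP5 segment at the top holds most of that difference.

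Among the inhibitors of RAS to RAF signalling, SPRY2 (ENSG00000136158, chromosome 13, 80335976 to 80340951), the Sprouty protein that is induced by and limits receptor tyrosine kinase signalling, had counts of 234, 195 and 211 in the knockdown and 233, 225 and 261 in the control. The groups overlapped. Its log2 fold change of -0.13 ± 0.16 did not pass (SE, edgeR adjusted p = 0.750), and the modelled interval for SPRY2 was -0.33 to 0.06.

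SPRED1 (ENSG00000166068, chromosome 15, 38252326 to 38357249), which brings the RAS inhibitor neurofibromin to the membrane, had counts of 198, 253 and 242 in the knockdown and 161, 149 and 155 in the control. The knockdown libraries were all higher. Its log2 fold change was 0.61 ± 0.19 (SE, edgeR adjusted p = 0.0611), short of the threshold. The modelled value for SPRED1 was 0.62 (95% interval 0.41 to 0.83), with a model adjusted p of 0.0958. SPRED1 passed in 4 of 17 alternatives, with adjusted p from 0.0205 to 0.760 over all of them, and without knockdown replicate 1 it was among these (log2 fold change 0.72, edgeR adjusted p = 0.0363).

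SPRED2 (ENSG00000198369, chromosome 2, 65310851 to 65432637), its relative with the same type of action, had counts of 430, 562 and 453 in the knockdown and 595, 587 and 621 in the control. The knockdown libraries were all lower in CPM. The log2 fold change was -0.29 ± 0.10 (SE, edgeR adjusted p = 0.106). It was -0.38 with the added number modelled (95% interval -0.55 to -0.19, model adjusted p = 0.0218) and -0.39 without knockdown replicate 2 (edgeR adjusted p = 0.0293). SPRED2 passed in 6 of 19 alternatives. Per kilobase, the ratio of SPRED1 to SPRED2 was 0.281 to 0.333 in the knockdown libraries and 0.156 to 0.169 in the control libraries, without overlap.

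PEBP1, the RAF kinase inhibitor protein, limits the phosphorylation of MEK (ENSG00000089220, chromosome 12, 118135858 to 118145584). It had counts of 2194, 2266 and 2176 in the knockdown and 4982, 4780 and 5170 in the control. The groups were far apart relative to their spread. PEBP1 averaged 113.1 ± 2.03 CPM in the knockdown and 248.1 ± 4.11 CPM in the control (SD, n = 3 each), 2.19-fold lower in the knockdown, or -1.13 ± 0.03 on the log2 scale (SE, edgeR adjusted p = 1.89e-07). The opposite-strand gene VSIG10 overlaps 9.49% of its exon bases and had 53, 57 and 68 counts in the knockdown and 85, 84 and 78 in the control.

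IER3, an immediate early gene whose protein is an ERK substrate, is known to prolong ERK phosphorylation by acting on the phosphatase PP2A, unlike the inhibitors above (ENSG00000137331, chromosome 6, 30743199 to 30744554). It had counts of 1303, 1319 and 1415 in the knockdown and 687, 704 and 637 in the control, with no overlap. IER3 averaged 68.9 ± 5.29 CPM in the knockdown and 33.8 ± 2.73 CPM in the control (SD, n = 3 each), a 2.04-fold difference (log2 fold change 1.03 ± 0.08 SE, edgeR adjusted p = 3.72e-05). The antisense gene IER3-AS1 overlaps 26.5% of its exon bases and had 30, 45 and 123 counts in the knockdown and 18, 29 and 33 in the control. Reads of a gene and of its antisense partner cannot be told apart without strand.

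**Figure D4:**
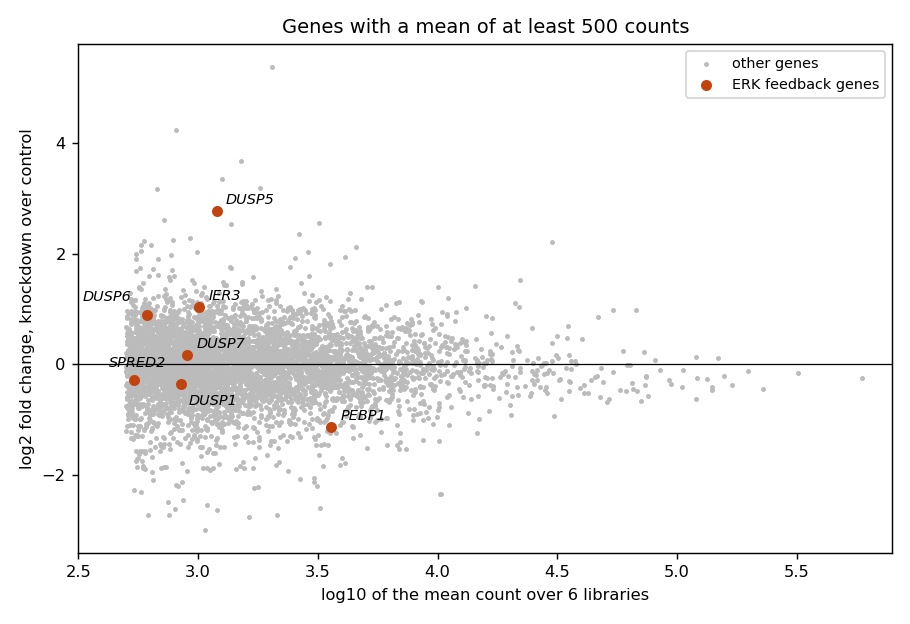
Log2 fold change, knockdown over control, against the log10 of the mean count for the 5038 well-counted genes (grey), with the 7 ERK feedback genes among them in colour. DUSP5 lies near the upper edge of the cloud at 2.77, PEBP1 near the lower side at -1.13, and DUSP7, DUSP1 and SPRED2 within its body.

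Across the 10 genes, levels per kilobase spanned a wide range. The lengths include exon bases overlapped by opposite-strand genes, 40.5% in DUSP6, 26.5% in IER3 and 9.49% in PEBP1. How reads there were counted is not known. In the knockdown the order from the highest was PEBP1 (63.5 ± 1.14 CPM per kilobase), IER3 (50.8 ± 3.90), DUSP5 (40.7 ± 0.845), DUSP1 (18.7 ± 0.739), DUSP6 (8.72 ± 0.558), DUSP7 (8.51 ± 0.642), SPRED2 (4.77 ± 0.600), SPRY2 (3.59 ± 0.367), SPRED1 (1.43 ± 0.186) and DUSP4 (1.24 ± 0.357; SD, n = 3). The neighbours DUSP6 and DUSP7, and SPRED1 and DUSP4, had overlapping ranges over libraries. In the control the order was PEBP1 (139.4 ± 2.31 CPM per kilobase), IER3 (24.9 ± 2.02), DUSP1 (23.8 ± 0.443), DUSP7 (7.58 ± 0.436), DUSP5 (5.98 ± 1.41), SPRED2 (5.82 ± 0.140), DUSP6 (4.71 ± 0.548), SPRY2 (3.93 ± 0.230), SPRED1 (0.936 ± 0.0196) and DUSP4 (0.245 ± 0.0150; SD, n = 3). Here IER3 and DUSP1, DUSP7 and DUSP5, DUSP5 and SPRED2, and DUSP6 and SPRY2 overlapped. PEBP1 was first in both groups, while DUSP5 was the third in the knockdown and the fifth in the control. The ratio of DUSP5 to PEBP1 per kilobase was 0.638 to 0.643 in the knockdown libraries and 0.0340 to 0.0541 in the control libraries.

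Promoter sequence was taken from RefSeq (GRCh38.p14) for 7 of the 10 genes, with 10 promoters in all, and DUSP4, DUSP5 and IER3 had no entry. The 250 bases before each start were searched on both strands for the cyclic AMP response element TGACGTCA, the AP-1 site TGANTCA, the ETS site CCGGAAG and the CArG box bound by SRF. These occurred in 1.65%, 6.57%, 8.52% and 1.16% of 35116 promoters. A single match was found, a cyclic AMP response element in the DUSP1 promoter that begins at position -125 counted from the start site. Whether it bears on the level of DUSP1 was not tested, and DUSP4 and DUSP5, which rose, could not be searched. It is shown here, in capitals, as the only match (chr5:172771196-172771445, minus strand).
DUSP1 promoter: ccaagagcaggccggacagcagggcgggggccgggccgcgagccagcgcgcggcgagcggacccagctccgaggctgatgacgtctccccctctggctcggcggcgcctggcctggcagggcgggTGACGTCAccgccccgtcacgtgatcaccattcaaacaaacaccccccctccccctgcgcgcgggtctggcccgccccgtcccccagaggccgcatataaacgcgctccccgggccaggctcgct
A match is a run of letters in this window, and binding was not measured.

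Genes of the wider ERK pathway moved both ways, as did genes in general. Of all genes tested in edgeR, 8.12% rose and 8.43% fell. Among well-counted genes fitted on their own, 38.1% rose and 38.9% fell. No list was tested as a set against these shares. Of 11 other MAP kinase phosphatases tested, 3 rose, 1 fell and 7 did not pass in edgeR, with a median log2 fold change of 0.22. The model called 4 higher and 5 lower in this list, so the balance of directions turned. The list medians given here and below are of edgeR values, in which the added number weighs on low genes. DUSP16, a JNK phosphatase, rose by 2.02 ± 0.18 on the log2 scale (SE), DUSP14 by 0.40 ± 0.07 and DUSP22 by 0.22 ± 0.04, and PTPN7, the haematopoietic ERK tyrosine phosphatase, fell by 0.24 ± 0.03. Of 13 other RAS and RAF inhibitors tested, 3 rose, 2 fell and 8 did not pass in edgeR, with a median of 0.08, and the model called 3 higher and 4 lower. The Sprouty genes SPRY1 (0.87 ± 0.15) and SPRY4 (1.33 ± 0.27) rose, and the adaptors DOK1 (-1.01 ± 0.13) and DOK2 (-0.22 ± 0.04) fell. SPRY1 had counts of 563, 543 and 453 in the knockdown and 356, 227 and 291 in the control, and SPRY4 had 364, 346 and 326 in the knockdown and 122, 92 and 212 in the control, without overlap in either gene. SPRY3 and IL17RD had too few counts to be tested.

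Of 12 other transcripts known to follow ERK activity, 4 rose, 3 fell and 5 did not pass in edgeR. Their median log2 fold change was 0.08, and the model called 4 higher and 4 lower. The edgeR shares were 8.12% higher and 8.43% lower of all tested genes, and 38.1% and 38.9% of well-counted genes. SPRY4 belongs to this list as well as to the inhibitors and is one of the 4 that rose. FOSL1, a FOS family member, rose by 1.09 ± 0.06 (SE) and the ETS factor ETV4 by 0.35 ± 0.04, while MYC fell by 0.95 ± 0.04 and cyclin D1 (CCND1) by 0.29 ± 0.08, all past the edgeR threshold. PHLDA1, chosen after its values were seen, had counts of 816, 775 and 801 in the knockdown and 150, 136 and 50 in the control (log2 fold change 2.86 ± 0.33 SE, edgeR adjusted p = 0.000382), and the model put it at 4.19. ETV4 and FOSL1 therefore moved in the direction of DUSP6, and MYC and CCND1 in that of DUSP1.

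Of 15 cascade components, 3 rose, 6 fell and 6 did not pass in edgeR, and the model called 3 higher and 5 lower. For this list and the 2 below, the edgeR shares of all tested genes were 8.12% higher and 8.43% lower. Those of well-counted genes were 38.1% and 38.9%. The cascade genes named here are all among those that fell. MAPK3, which encodes the ERK1 kinase that the phosphatases act on, fell by 1.65 ± 0.05 on the log2 scale (SE). The MEK gene MAP2K2 fell by 0.62 ± 0.04 and the adaptor gene SHC1 by 0.67 ± 0.03, and the scaffold gene KSR1 fell by 0.17 ± 0.04. The JNK and p38 families include other substrates of DUSP1 and DUSP4. Of 6 genes of these families, the p38 gene MAPK14 rose by 0.37 ± 0.07 and MAPK12 fell by 0.77 ± 0.05. The JNK genes MAPK8 (0.65 ± 0.24) and MAPK9 (0.02 ± 0.17) were among the 4 that did not pass in edgeR, and the model called 2 of the 6 higher, MAPK8 among them, and 2 lower. Of 7 regulators of SPRY2 or of the phosphatases, 3 rose and 2 fell, in edgeR and in the model alike. The ubiquitin ligase genes CBL (-1.65 ± 0.20), whose protein binds SPRY2, and SIAH2 (-0.87 ± 0.05) fell. CBLB, a ubiquitin ligase gene related to CBL and named after its values were seen, rose by 1.81 ± 0.16 on the log2 scale (SE, edgeR adjusted p = 7.04e-05). MKNK1, an ERK-activated kinase that phosphorylates SPRY2, rose by 0.51 ± 0.05 and the F-box gene FBXO31 by 0.39 ± 0.08.

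**Figure D5:**
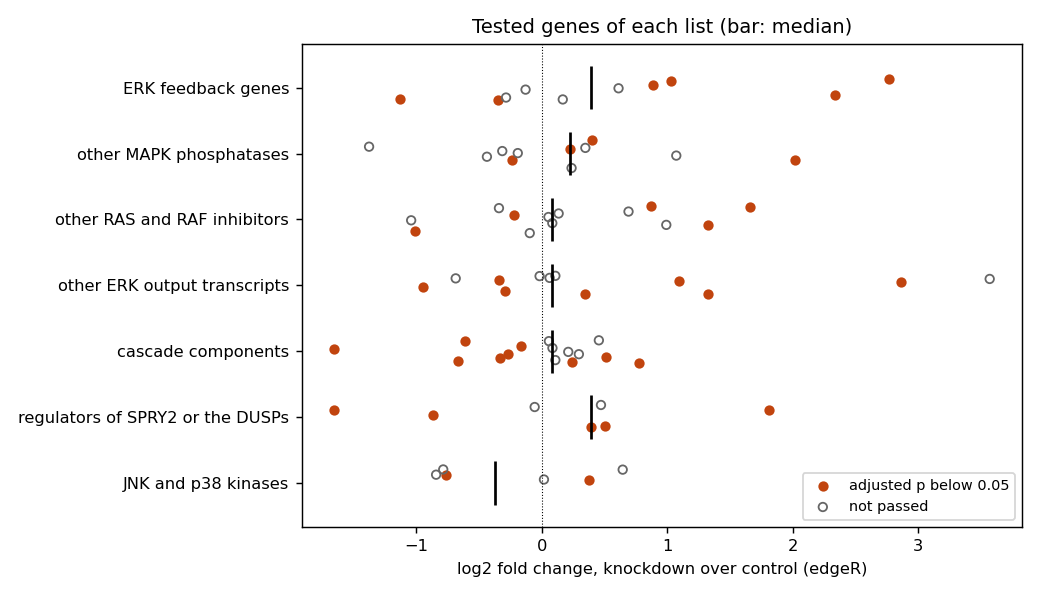
Log2 fold change, knockdown over control (edgeR), of the tested genes in 7 lists of the ERK pathway. Points are genes, filled where the adjusted p was below 0.05 and open where it was not, and the bar is the median of the list. Each list has genes on both sides of 0, and the medians run from -0.38 for the JNK and p38 kinases to 0.39 for the ERK feedback genes and for the regulators. These medians are of edgeR values, in which the added number weighs on low genes. MAPK13, with counts of 28, 45 and 27 in the knockdown and 28, 36 and 121 in the control, was at -0.84. It was at 0.29 in the model, the only kinase of the JNK and p38 list to change sign.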

How the data were processed

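What the authors deposited is a single table of gene counts, whole numbers in every library. The submitters' processing notes name STAR, HTSeq, fastp, FastQC, R 4.3.3 and DESeq2, with no roles, and GRCh38. Neither strand setting nor annotation release was found in the sources used here. Symbols matched 99.9% of gene IDs, and coordinates and exon lengths are from GENCODE release 29.

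Counts were fitted with edgeR 4.0.16 (TMM, filterByExpr with a minimum count of 10, robust quasi-likelihood F-test, no block, Benjamini-Hochberg adjustment over 28303 genes, threshold 0.05). Of the genes tested, 8895 have no value other than the 5 added numbers. SE is the log2 fold change divided by the root of F. In the model a value was the sum of negative binomial reads and 0, 1, 2, 10 or 100 at equal chance, with 1 dispersion (0.00293) for all genes, a likelihood-ratio test and 95% profile intervals, adjusted over 61852 genes (13.5% called, 6.60% higher and 6.93% lower). A gene noisier than that dispersion gets too small a p and too narrow an interval. Alternatives were other scalings and filters, each library left out, a replicate block, DESeq2 1.42.0, limma-voom (limma 3.58.1), a test against a fold change of 1.5, GC and length trends removed, and longest-transcript lengths. Shares of the phosphatases from modelled reads were added after seeing the data. Scripts were tested on simulated data. In each pathway list, up to 4 genes were named by mean count, those past the threshold first, and MAPK3 always. Some genes that this rule names are not reported here. The members and lists were chosen with earlier results of these data known.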

Additional observations from a re-analysis of the deposited data

How the results depend on the processing

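DUSP5, DUSP6, IER3 and PEBP1 kept their direction and their call in all 19 alternatives, with log2 fold changes of 2.64 to 2.97, 0.74 to 0.98, 0.96 to 1.27 and -1.15 to -1.06, and no member changed direction in any alternative. DUSP1 lost its call only against a fold change of 1.5 (-0.35), and DUSP4 in limma-voom (2.30) and without knockdown replicate 2 (2.08). SPRY2 passed in none of 17. DUSP7 passed with library totals alone (0.24, edgeR adjusted p = 0.0486), among well-counted genes (0.18, 0.0452) and with trends in GC and length removed (0.41, 6.52e-05). The count of genes changed, 4683, was 1180 against a fold change of 1.5 and 8367 with the added number modelled. In the pathway lists, where 31 genes passed, the test against 1.5 left 10. With the replicate number as a block 4182 genes and the same number of members, 6, passed. Same-numbered libraries had correlations of -0.0801 to 0.10, so the numbers were not taken as pairs. With the length of the longest transcript, 6 positions changed in the orders of levels, both groups counted, and the share of DUSP5 in the knockdown was 48.7%. In the knockdown DUSP7 then stood above DUSP6. Leaving out 1 library in turn, on the same genes, gave 3808 to 4064 genes, 6 to 7 members and 26 to 28 genes of the pathway lists. Depth limits DUSP4, SPRY2 and SPRED1, whose reads are of the order of the largest added number.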
